A study of Mus musculus with 6 samples.

Results

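The interleukin-1 (IL-1) family genes were described in cultured mouse astrocytes as 10 members picked out by gene symbol from the 55357 genes listed. They comprised 4 ligands (Il1a, Il1b, Il18 and Il33), 2 secreted antagonists (Il1rn and Il18bp) and 4 receptor genes (Il1r1, Il1r2, Il1rap and Il1rl1), and all 10 were found. The astrocytes came from the cortex of C57BL/6 embryos. A plasmid expressing FLAG-tagged BRAF K499E under the CMV promoter was transfected into 3 cultures (KE), while 3 cultures were not transfected (NT). RNA was collected 48 hours after transfection and libraries were made from mRNA with a stranded kit. The K499E substitution is a gain-of-function change in the kinase BRAF, and the comparison asks how its expression alters transcription in astrocytes. No cultures given a mock transfection, an empty plasmid or wild-type BRAF were analysed here. The transfection procedure, the plasmid and its insert therefore cannot be told apart. The labels number the cultures 1 to 3 in each group without saying whether they came from separate preparations, so the p-values measure the spread between these cultures, which may be technical.

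IL-1α and IL-1β both bind the receptor IL-1R1, which then recruits the accessory chain IL-1RAP and signals through MyD88, IRAK kinases and NF-κB. IL-1RN occupies the same receptor without signalling, IL-1R2 captures IL-1 as a decoy, and IL-18BP neutralizes IL-18. IL-33 is a nuclear alarmin that acts through ST2, the product of Il1rl1, again together with IL-1RAP. In the brain, microglia are known as a main source of IL-1, whereas astrocytes respond to it and can make IL-33.

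In KE, transcripts of both IL-1 ligands and of their receptor antagonist fell (Il1a, Il1b and Il1rn), whereas those of Il18, Il33, the IL-18 antagonist Il18bp and the shared receptor chain Il1rap rose. The signalling receptor Il1r1 and the ST2 gene Il1rl1 did not pass the test, and the decoy Il1r2 was too low to be tested. Of the 9 members tested, 4 were higher and 3 lower in KE by limma at an adjusted p under 0.05, and in 7 of them the groups did not overlap. Among all 15280 genes tested, 51.3% were called, 25.3% higher and 26.0% lower, and 59.9% did not overlap. The members' median log2 fold change (log2FC) was 0.39 and that of all tested genes was 0.00. Since calls were this common among all genes, the members are described singly, by size and direction, and nothing is read from how many were called.

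As a check of the transfection, Braf reached 35025, 34933 and 40978 normalized counts in KE, against 925, 811 and 946 in NT. Astrocyte transcripts were checked with 12 marker genes, whose summed normalized count lay between 143565 and 152402 in NT and between 195735 and 201788 in KE. This sum does not measure purity: summed microglia and macrophage markers, described below, lay between 133762 and 152867 in NT. Of the 11 that were tested, 7 were higher and 2 lower in KE (1 lower without KE replicate 1, KE replicate 3, NT replicate 2 or NT replicate 3). Gfap, the astrocyte intermediate filament gene, had a log2FC of 0.87. The 2 lower genes were Gja1 (-0.46) and Fgfr3 (-0.23), and S100b was low and not called (-0.60). The approximate depth was 24500000 to 34100000 reads per culture. Pearson's r across genes was at least 0.9885 within a group and at most 0.95 between groups, a description of the libraries only.

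Il1a, Il1b and Il1rn lie on chromosome 2 of GRCm39. The gene for IL-1α (Il1a, ENSMUSG00000027399) spans 129140291 to 129152098 on the minus strand, and that for IL-1β (Il1b, ENSMUSG00000027398) spans 129206490 to 129213059 on the same strand. Il1rn (ENSMUSG00000026981) spans 24226865 to 24241506 on the plus strand, far from the other two. Because these 3 genes fell together, the 250 bases before each annotated transcript start are shown, 5′ to 3′ on the strand of the gene, with motif matches in capitals. The windows are chr2:129152099-129152348 for Il1a, chr2:129213060-129213309 for Il1b and chr2:24226615-24226864 for Il1rn.
Il1a: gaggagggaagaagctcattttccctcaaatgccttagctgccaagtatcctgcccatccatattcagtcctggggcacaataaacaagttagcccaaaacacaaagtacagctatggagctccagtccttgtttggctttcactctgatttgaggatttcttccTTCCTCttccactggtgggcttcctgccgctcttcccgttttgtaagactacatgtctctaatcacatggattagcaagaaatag
Il1b: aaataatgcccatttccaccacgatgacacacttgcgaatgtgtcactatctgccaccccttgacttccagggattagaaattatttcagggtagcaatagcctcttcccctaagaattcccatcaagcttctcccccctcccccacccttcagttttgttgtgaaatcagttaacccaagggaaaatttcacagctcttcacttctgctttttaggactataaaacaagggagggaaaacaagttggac
Il1rn: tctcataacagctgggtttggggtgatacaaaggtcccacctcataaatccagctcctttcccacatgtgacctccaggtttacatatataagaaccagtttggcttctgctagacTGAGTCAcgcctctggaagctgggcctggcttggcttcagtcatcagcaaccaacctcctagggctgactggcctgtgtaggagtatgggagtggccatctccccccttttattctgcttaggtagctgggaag
The letters searched, on both strands, were TGANTCA (AP-1), TTNNGCAA (C/EBP), GAGGAA (the core bound by PU.1, a myeloid factor), GAAA, any 2 bases and GAAA again (the interferon-stimulated response element) and the NF-kappaB motif. The capitals in Il1a mark the PU.1 core on the opposite strand, 85 to 80 bases before the start. The capitals in Il1rn mark a match to the AP-1 letters 134 to 128 bases before the start. No match to these 5 motifs was found in the Il1b window. Across all 10 members, the AP-1, C/EBP and NF-kappaB letters were each found in 1 window, those of PU.1 in 2 and the interferon element in 0. Among 21770 windows of the same length, 6.17% held the AP-1 letters, 9.34% those of C/EBP, 22.9% the PU.1 core, 3.32% the interferon element and 7.62% NF-kappaB. The PU.1 match outside Il1a was in Il18, and the C/EBP match was in Il18bp. A match is a description of these letters and not a binding site, and no other motif was searched.

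**Figure D1:**
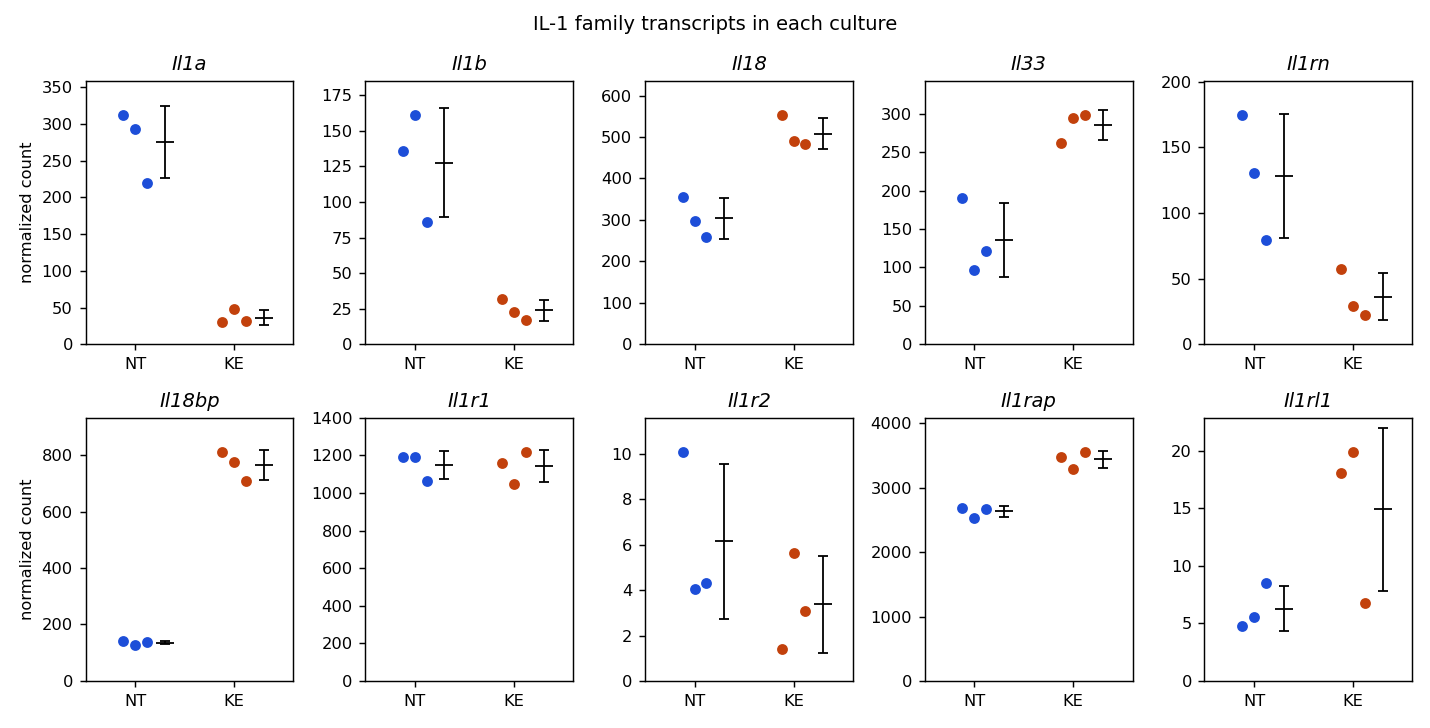
Normalized count of each of the 10 IL-1 family genes in the 3 NT (blue) and 3 KE (orange) cultures, on linear axes that start at 0 and differ between panels; black marks give the mean and SD. Il1a, Il1b and Il1rn were lower in KE and Il18, Il33, Il18bp and Il1rap higher, in each case without overlap of the groups, whereas Il1r1, Il1r2 and Il1rl1 overlapped.

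Among the ligands, Il1a showed the largest fall. Its normalized counts were 312, 294 and 220 in NT, against 29.8, 47.5 and 31.7 in KE. Every KE culture was therefore below every NT culture, with the highest KE value in replicate 2. The means were 275 ± 48.9 in NT and 36.3 ± 9.73 in KE (SD, n = 3 each), and the log2FC was -2.90 (95% confidence interval -3.37 to -2.43, adjusted p = 9.8e-07 from limma).

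Il1b, whose product is secreted after cleavage by caspase-1, fell in the same direction. It was 136, 161 and 85.9 in NT and 31.5, 22.5 and 17.2 in KE. The NT cultures were the more uneven ones, but the lowest of them was still above the highest KE culture. The log2FC was -2.37 (95% confidence interval -3.00 to -1.74, adjusted p = 4.6e-05 from limma). Gm14023, an lncRNA gene annotated on the opposite strand across both ligand genes, averaged 13.7 normalized counts in KE and was not called (log2FC 0.85, adjusted p = 0.089 from limma).

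Il18 moved the other way. This ligand is also matured by caspase-1 and was 355, 297 and 259 in NT and 552, 490 and 483 in KE. All KE cultures were above all NT cultures, though the rise was modest beside the falls of the IL-1 ligands. Its log2FC was 0.75 (95% confidence interval 0.48 to 1.02, adjusted p = 4.2e-04 from limma). Il18 (ENSMUSG00000039217) lies on the plus strand of chromosome 9 from 50466081 to 50493633. Only the first part of this span, 50466081 to 50466483, overlaps Bco2, which is on the opposite strand. The Il18 window searched for motifs lies further in, at 50476424 to 50476673. Bco2 also rose (log2FC 1.01, adjusted p = 8.2e-04 from limma), and whether the counting used strand is not given in the sources used here.

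The alarmin Il33 rose as well. Its normalized counts were 190, 96.5 and 121 in NT and 262, 295 and 298 in KE. The KE cultures lay close together while the NT cultures were scattered, and the groups did not overlap. The log2FC was 1.12 (95% confidence interval 0.66 to 1.58, adjusted p = 0.0010 from limma), and it stayed between 0.90 and 1.39 when each culture was left out in turn. Il33 (ENSMUSG00000024810) is on the plus strand of chromosome 19 from 29902483 to 29938933.

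The antagonists split in the same manner as the ligands they oppose. Il1rn, which encodes the IL-1 receptor antagonist, was 174, 131 and 79.7 in NT and 57.0, 29.4 and 22.6 in KE. Both groups were widely spread, and the highest KE culture (replicate 1) came within reach of the lowest NT culture (replicate 3) without overlap. The log2FC was -1.83 (95% confidence interval -2.60 to -1.05, adjusted p = 0.0013 from limma).

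Il18bp, which encodes the secreted inhibitor of IL-18, showed the largest rise of the family. Its normalized counts were 142, 129 and 138 in NT and 811, 776 and 709 in KE. The cultures of each group were close together, and the KE mean of 766 ± 51.9 (SD, n = 3) was 5.63 times the NT mean of 136 ± 6.50 (SD, n = 3). The log2FC was 2.48 (95% confidence interval 2.26 to 2.70, adjusted p = 1.8e-08 from limma), and 121 of the 15280 tested genes, Il18bp included, had a log2FC at least this high. Il18bp (ENSMUSG00000070427) lies on the minus strand of chromosome 7 from 101638490 to 101668206, and its span overlaps that of Numa1, on the opposite strand, from 101638490 to 101664388. Numa1 was far more abundant in reads and slightly lower in KE (log2FC -0.19, adjusted p = 0.039 from limma), the opposite direction to Il18bp.

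**Figure D2:**
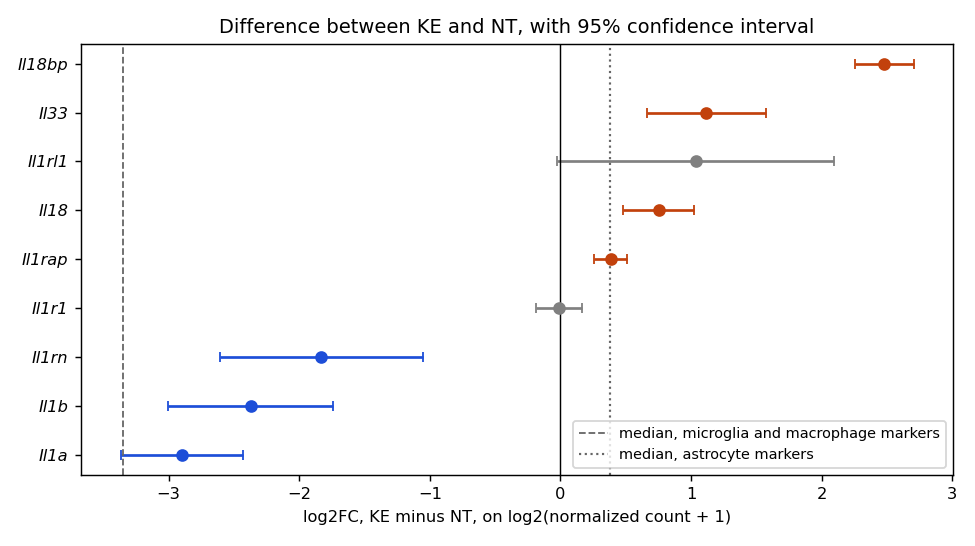
log2FC (KE minus NT, on log2 of the normalized count plus 1) of the 9 tested IL-1 family genes as points with 95% confidence intervals from limma; orange points were called higher, blue points lower, grey points were not called. The dashed line is the median of the tested microglia and macrophage markers (-3.35) and the dotted line that of the astrocyte markers (0.38).

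Each antagonist was also compared with its ligand within the same culture, which does not depend on how cultures were scaled to each other. The log2 ratio of Il18bp to Il18 was -1.33, -1.20 and -0.91 in NT and 0.55, 0.66 and 0.55 in KE. The balance of these transcripts thus passed from more Il18 reads to more Il18bp reads in all 3 KE cultures, a difference in log2 ratio of 1.74. The log2 ratio of Il1rn to the sum of Il1a and Il1b was -1.36, -1.80 and -1.94 in NT and -0.11, -1.25 and -1.12 in KE. Here the difference was 0.87, with KE replicate 1 far above the other KE cultures, which came close to the highest NT value. Without KE replicate 1 the difference was 0.52. These ratios are of reads, not of molecules, and are given as a description with no test.

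**Figure D3:**
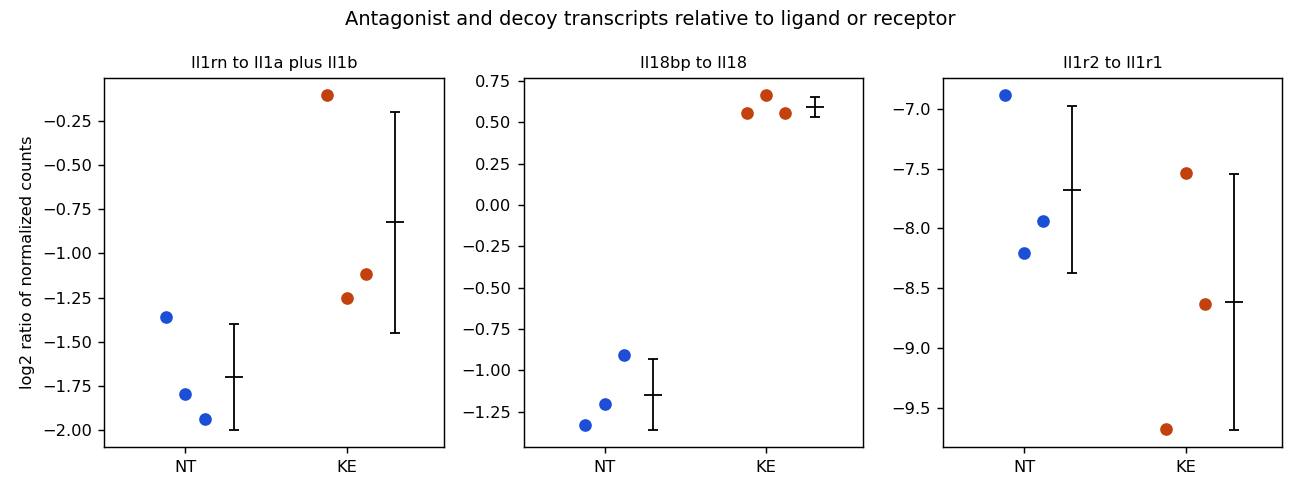
log2 ratio of normalized counts within each culture for Il1rn to Il1a plus Il1b, Il18bp to Il18 and Il1r2 to Il1r1, in NT (blue) and KE (orange), with mean and SD in black and axes that differ between panels. The Il18bp to Il18 ratio was between -1.33 and -0.91 in NT and between 0.55 and 0.66 in KE, whereas the Il1r2 to Il1r1 ratio overlapped between groups.

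Among the receptors, the shared chain Il1rap rose by a small but well-separated amount. It was 2688, 2536 and 2677 in NT and 3472, 3296 and 3554 in KE. Within each group the cultures were close, and no KE culture reached down to NT. The log2FC was 0.39 (95% confidence interval 0.26 to 0.51, adjusted p = 2.2e-04 from limma). Il1rap (ENSMUSG00000022514) is on the plus strand of chromosome 16 from 26400350 to 26548880, and the table does not separate its membrane form from its soluble form.

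Il1r1, the signalling receptor for both IL-1 ligands, had normalized counts of 1193, 1193 and 1061 in NT and 1158, 1050 and 1218 in KE. The groups overlapped throughout. The log2FC was -0.01 (95% confidence interval -0.19 to 0.17, adjusted p = 0.93 from limma), so a difference larger than about 0.19 on this scale lay outside the interval. Its sign changed with the scaling (0.0087 with quantile normalization) and with single cultures (0.049 without KE replicate 2, 0.018 without NT replicate 1 or 2). Il1r1 (ENSMUSG00000026072), Il1r2 (ENSMUSG00000026073) and Il1rl1 (ENSMUSG00000026069) lie on the plus strand of chromosome 1, from 40264174 to 40356417, 40113239 to 40164391 and 40468730 to 40504575.

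Il1rl1, the receptor for IL-33, was low, with 4.81, 5.52 and 8.47 in NT and 18.1, 19.9 and 6.79 in KE. KE replicates 1 and 2 were above NT, and KE replicate 3 lay among the NT values. The log2FC of 1.04 was not called (95% confidence interval -0.02 to 2.10, adjusted p = 0.094 from limma), and without KE replicate 3 it was 1.49 with an adjusted p of 0.024. This gene passed the filter on a mean of 10 only through its KE cultures. The decoy Il1r2 was lower still, at 10.1, 4.04 and 4.33 in NT and 1.41, 5.66 and 3.07 in KE, and was not tested because its mean was under 10. The KE and NT values of Il1r2 overlapped.

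To compare levels between genes, the normalized counts were divided by the length of 1 annotated transcript per gene. Il1rap was the most abundant member per length in both groups, with 563 ± 18.1 normalized counts per kb in NT and 736 ± 28.3 in KE (SD, n = 3). In NT it was followed by Il18 (224 ± 35.8 per kb) and Il1r1 (195 ± 13.0 per kb), which did not differ beyond their range. Il1b, Il18bp, Il1a, Il1rn and Il33 came next, between 94.1 and 40.2 per kb, each overlapping its neighbour in range, and Il1r2 and Il1rl1 were last. In KE the order after Il1rap was Il18bp (456 ± 30.9 per kb), Il18 (375 ± 28.1 per kb), Il1r1 and Il33, with no overlap between neighbours. Il1b, Il1rn and Il1a had dropped to between 17.5 and 10.6 per kb and overlapped one another, and Il1rl1 and Il1r2 overlapped below them. Because the authors' counting may have used other transcripts of each gene, these levels are approximate.

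The members that fell did so alongside markers of microglia and macrophages, cells that can remain in astrocyte cultures although the methods describe shaking the dishes. Of 25 such markers, 24 were tested and 23 were lower in KE, with a median log2FC of -3.35. Their summed normalized count lay between 133762 and 152867 in NT and between 12457 and 16651 in KE. The most abundant were Lyz2, which encodes a lysozyme of myeloid cells (log2FC -4.66), and Adgre1, which encodes the macrophage marker F4/80 (-4.01). Sall1 was not called (log2FC 0.03), and Cd163 was under the filter. In these bulk cultures, fewer cells of a type and less RNA per cell cannot be told apart. Relative to the summed markers within each culture, Il1a was higher in KE by 0.45 on the log2 scale, Il1b by 0.97 and Il1rn by 1.53. Every member was higher in KE on this measure without overlap, Il1r1 by 3.38 and Il1r2 by 2.44, because the sum itself fell. The sum is also uneven: Lyz2 averaged 63608 in NT and 2557 in KE, and Sall1 2739 and 2801. Nothing is therefore read from the lack of overlap. The part of these markers in the falls of Il1a, Il1b and Il1rn, and in the falls of other genes given below, was not tested.

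**Figure D4:**
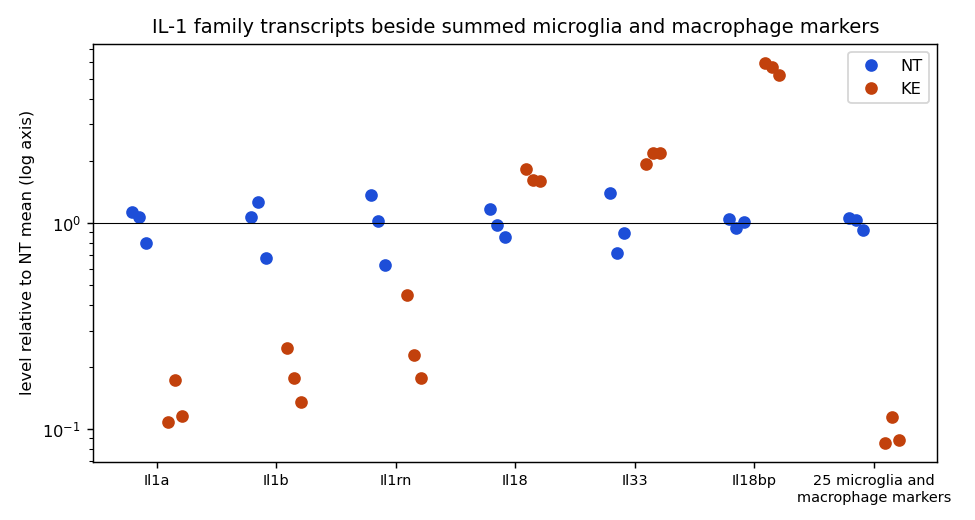
Level in each culture divided by the NT mean, on a log axis, for 6 IL-1 family genes and for the summed normalized count of 25 microglia and macrophage markers, in NT (blue) and KE (orange). Il1a, Il1b, Il1rn and the markers lay below the NT cultures in KE, whereas Il18, Il33 and Il18bp lay above them.

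Markers of other cells were compared in the same way. Of the astrocyte genes, Slc1a3 and Glul, which serve glutamate uptake and conversion, had log2FC of 0.25 and 0.38. Of 10 oligodendrocyte lineage markers, 9 were tested, of which 7 were lower and 1 higher, and their sum lay between 38171 and 38399 in NT and between 29787 and 34867 in KE. Their most abundant genes were Olig1 (-0.20), Olig2 (-0.55) and Cnp (0.38). Of 10 fibroblast and pericyte markers, 5 were lower, 3 higher and 2 not called, with log2FC of -1.16 for Fn1, -0.79 for Thy1 and -1.34 for Acta2. Of 10 neuronal markers, 8 were tested, with 3 lower and 2 higher. Their most abundant genes were Map2 (-0.51), Gap43 (-0.55) and Stmn2 (-0.58). Of 8 endothelial markers, 4 were tested and 2 were lower, Flt1 (-0.62) and Pecam1 (-0.86), while Vwf was not called (-0.63). Of 10 neutrophil and monocyte markers only 3 were tested. Csf3r (-3.34) and Mmp8 (-3.76) were lower, and Plac8 (1.89) was higher, but Mmp8 passed the filter only through NT and Plac8 only through KE, which fixed the direction of each. Of 9 mast cell and basophil markers, 6 were listed at 0 in every culture and 2 were tested, Kit (-0.87) and Hdc (2.99), the latter only through KE. None of the 10 lymphocyte markers reached the filter, and their sum was between 5.40 and 20.9 normalized counts in every culture. Counts in these lists moved when single cultures were left out. Without KE replicate 3 or NT replicate 2, 4 oligodendrocyte lineage markers were lower. Without NT replicate 1, 1 neutrophil marker and 1 endothelial marker were lower, and without NT replicate 2, 1 endothelial marker. Without KE replicate 2, Hdc was not called, and without KE replicate 3, 1 fibroblast marker was higher. The part of these cells in the results was not tested.

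The rest of the IL-1 family was largely silent in these cultures. Of 11 further ligands and receptors, 3 passed the filter and 1 was called, against 51.3% of all tested genes. This was Il1rl2, the receptor for the IL-36 cytokines, with 104, 86.9 and 120 in NT and 11.01, 7.03 and 5.94 in KE (log2FC -3.57, adjusted p = 2.0e-06 from limma). It passed the filter only through its NT cultures, so only a fall could be seen. The IL-36 ligand Il36g was listed at 0 in all NT cultures and reached 2.71, 5.01 and 4.53 in KE. Of the IL-18 receptor, the signalling chain Il18rap was 57.5, 44.4 and 31.3 in NT and 36.9, 29.9 and 37.0 in KE (not called, log2FC -0.32). The ligand-binding chain Il18r1 was listed at 0 in 5 of the 6 cultures and at 0.95 in NT replicate 3.

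Genes that mature and release the ligands moved in both directions. Of 14 listed, 12 were tested, 3 were higher and 6 lower, against 25.3% higher and 26% lower of all tested genes, and 3 of the 6 passed the filter only through NT. Casp1, which encodes the protease that cleaves pro-IL-1β and pro-IL-18, was 766, 744 and 592 in NT and 1484, 1414 and 1444 in KE (log2FC 1.05, adjusted p = 5.3e-06 from limma). Casp4, the noncanonical inflammatory caspase, rose with it (1.38), as did Hax1 (0.27). The sensor Nlrp3 went the other way, at 279, 424 and 195 in NT and 28.2, 17.9 and 19.9 in KE (log2FC -3.66, adjusted p = 1.2e-06 from limma). Those 3 were the sensors Nlrp1a (-3.42), Nlrc4 (-3.05) and Nlrp1b (-2.85), of which only a fall could be seen. The adaptor Pycard, which joins sensors to caspase-1, had a log2FC of -1.87 (adjusted p = 7.4e-06 from limma). The sensor Aim2 was also lower (-2.76). Thus Casp1 and Casp4 rose while the sensors Nlrp3 and Aim2 and the adaptor fell. The median log2FC of the microglia and macrophage markers was -3.35, and their part in these falls was not tested. With the filter at a mean of 50, 3 genes of this list were lower.

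Genes that carry the signal below the receptors moved in both directions. Of 28 tested, 7 were higher, 5 lower and 16 not called, against 51.3% of all tested genes called, and the log2FC ran from -1.90 to 0.79 around a median of 0.04. Myd88, the adaptor of the IL-1 receptors and of most Toll-like receptors, was 1035, 1045 and 936 in NT and 1680, 1791 and 1729 in KE (log2FC 0.79, adjusted p = 3.8e-06 from limma). Relb (0.62), an NF-κB subunit, and Mapk9 (0.39), a JNK kinase, were the next largest rises. Irak3, which encodes an inhibitory IRAK known from myeloid cells, was 561, 610 and 359 in NT and 122, 129 and 149 in KE (log2FC -1.90, adjusted p = 8.2e-06 from limma). Rel (-0.98), another NF-κB subunit, and Map3k3 (-0.27) were also lower, but Map3k3 was no longer called without KE replicate 1 (adjusted p = 0.053). Without KE replicate 1 or NT replicate 2, 3 genes of this list were lower. Irak1 (0.05), Irak4 (0.20) and the ubiquitin ligase Traf6 (-0.10) were not called.

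Genes known to follow IL-1 and NF-κB in many cells moved in both directions. Of 26 listed, 24 were tested, 17 rose and 3 fell, against 25.3% higher and 26% lower of all tested genes, with a median log2FC of 0.66. Ptgs2, which encodes cyclooxygenase-2, was 424, 510 and 208 in NT and 3782, 3564 and 4493 in KE (log2FC 3.46, adjusted p = 9.9e-07 from limma). The cytokines Lif (2.62) and Il6 (2.48) followed, and the feedback inhibitors Tnfaip3 (1.13) and Nfkbia (0.24) rose as well. The falls were those of the chemokine Cxcl5 (-1.40), the acute-phase gene Saa3 (-1.26) and the collagenase Mmp13 (-1.09). Mmp13 was not called without KE replicate 2 (-1.07), KE replicate 3 (-0.91), NT replicate 1 (-0.85) or NT replicate 2 (-0.94), with adjusted p of 0.069, 0.10, 0.13 and 0.10. These genes also follow other signals, and the list says nothing of which one acted here.

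**Figure D5:**
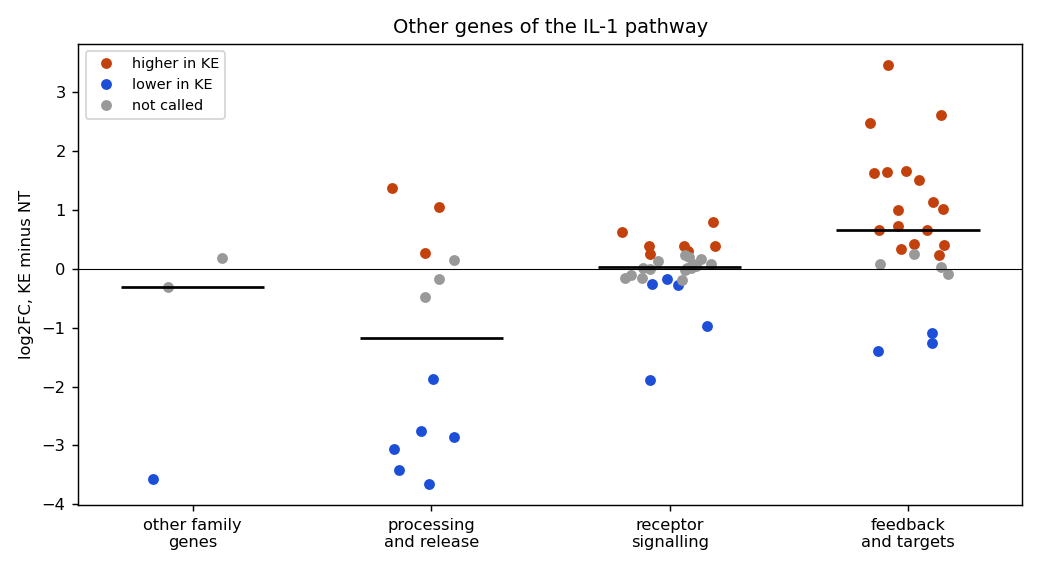
log2FC (KE minus NT) of each tested gene in 4 lists of the IL-1 pathway outside the 10 members, with the list median as a black line; orange points were called higher, blue points lower and grey points not called by limma. The medians were -0.32, -1.18, 0.04 and 0.66 from left to right.

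The genes most like each member across the 6 cultures were found by Pearson's r of log2 values, among genes with a mean of at least 100. For Il1a these were Lrrc25 and Gpnmb (r = 0.9998 and 0.9991), and for Il1b they were Coro2a and Pnmal1 (0.9994 and 0.9975). For Il1rn they were Atp5j and Cenpu (0.9968 and 0.9955). For Il18bp they were Aox1 and Extl1 (0.9993 and 0.9990), for Il18 Sat1 and AI413582 (0.9995 and 0.9956) and for Il33 Cdh19 and Mosmo (0.9972 and 0.9958). Il1rap was most like Ppp3ca and 1110032A03Rik (0.9992 and 0.9979), Il1rl1 like Tmem147 and Ascc2 (0.983 and 0.983) and Il1r1 like Nom1 and Zfp607a (0.980 and 0.977). With 6 cultures in 2 groups, the difference between KE and NT sets most of these values: 1350 genes exceeded 0.95 with Il1a and 1539 with Il18bp, against 89 with Il1rn and 5 with Il1r1. They are a description over cultures that share their groups, and no function is read from them.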

How the data were processed

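RNA-seq was compared between 3 KE and 3 NT cultures, grouped by their labels. The deposited values are a normalized signal per gene: the authors trimmed reads with Trim Galore, aligned them with STAR, counted with Salmon and divided the counts by DESeq2 size factors. The methods give GRCm39 with Gencode for mouse samples, and the processing notes list GRCh38, the human build of the same study. The methods also mention adjusting for batches, which the sources used here do not name. Depth was approximated as each total over its most frequent low value. Between 75.2% and 77.7% of values under 20 lay within 0.1 of a whole multiple of it, short of the 95% required here, so whole reads were not recovered and no count test was run.

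The 2 groups were contrasted, two-sided, on log2(normalized count + 1) by limma (version 3.58.1, R 4.3.3) with a variance trend and no further factor. Genes entered if their mean over the 6 cultures reached 10, and calls were made at an adjusted p under 0.05 (Benjamini-Hochberg, 15280 genes). This scale understates changes of low genes. The fit was tested on simulated data. Coordinates and transcript lengths came from Gencode vM39 on GRCm39, which holds 54749 of the 55357 gene identifiers, and windows from that genome. Motifs were searched before the Ensembl canonical transcript of each protein-coding gene.

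The members and lists were chosen with earlier results of these data known. Named are the members, the 3 largest rises and 3 largest falls called in each pathway list with 8 defining genes (Casp1, Nlrp3, Myd88, Irak1, Irak4, Traf6, Nfkbia and Tnfaip3), the 3 most abundant genes of each marker list, Braf, and the 2 genes most like each member. Pycard, Nlrp1b, Aim2, Il36g, Il18rap, Il18r1, Sall1, Cd163, Gja1, Fgfr3, S100b and genes overlapping a member were named after their values were seen. Values of 1 marker gene that this rule names are not reported here. Alternatives were pseudocounts of 0.5 and 4, no filter or a mean of 50, quantile or 75th percentile scaling, no variance trend, the replicate number as a block, and leaving out each culture.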

Additional observations from a re-analysis of the deposited data

How the results depend on the processing

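Over 14 alternatives, Il1a, Il1b and Il1rn stayed lower and Il18, Il33, Il18bp and Il1rap higher in KE, and each was called in all of them, with 4 members higher and 3 lower, except that leaving out KE replicate 3 made 5 higher (4 to 5 over cultures left out). Il1r1 was never called, and its log2FC was 0.0087 with quantile normalization and -0.066 to 0.049 without single cultures. Il1rl1 was tested in 11 of the alternatives, with an adjusted p of 0.024 to 0.21. With the replicate number as a block, 3967 of all tested genes were higher and 4079 lower, and no member's call changed. Same-numbered KE and NT cultures correlated in their deviations with r of 0.059, 0.066 and 0.065, each above the r with other numbers, which is a hint from the data and not the design.

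With no filter, 1 further family gene was higher. With a mean of at least 50, 3 processing genes, 1 neutrophil marker and 1 endothelial marker were lower, 1 neuronal marker was higher, and 0 neutrophil and 0 mast cell markers were higher. Without the variance trend, 3 signalling genes, 1 astrocyte marker and 4 oligodendrocyte lineage markers were lower and 1 fibroblast marker was higher. More genes are tested with no filter and fewer with a mean of at least 50, and for the trend the cause was not tested. Without single cultures, lower counts were 3 to 4 for signalling genes, 1 to 2 for neutrophil markers, 1 to 2 for astrocyte markers, 4 to 7 for oligodendrocyte lineage markers and 1 to 2 for endothelial markers, and higher counts were 0 to 1 for mast cell markers and 1 to 2 for fibroblast markers. Irak1, not called, ranged from -0.023 to 0.11. The differences in log2 ratio ranged from 0.52 to 1.09 for Il1rn, 1.65 to 1.86 for Il18bp and -1.48 to -0.41 for Il1r2. The count test was not run, as whole reads were not recovered.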
